A study of Mus musculus with 9 samples.

Results

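This account covers 10 genes of the muscle atrophy programme in mouse quadriceps: the FoxO transcription factors Foxo1, Foxo3 and Foxo4, the ubiquitin ligase genes Fbxo32, Trim63, Fbxo30, Fbxo21 and Fbxo31, and the stress and translation genes Gadd45a and Eif4ebp1. They were taken by symbol from an RNA-seq table of 13116 genes, and all 10 were present and passed the filter on low values. The muscle came from male mice aged 18 months that had received a tail vein injection at 9 months of age, with 3 libraries in each of 3 groups. Wild-type mice given PBS, the saline vehicle, formed the group WT_PBS. GAA KO mice, which lack a working gene for acid alpha-glucosidase, formed the group KO_PBS when given PBS. In the group KO_secGAA they received the viral vector AAV8-sp7-delta8-hGAAco for expression of secGAA, a secreted form of that enzyme. The labels give no strain, no promoter of the vector and no statement that each library came from a different animal. Each library is called a mouse below, and p-values measure the spread between these samples.

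Acid alpha-glucosidase breaks down glycogen in lysosomes, and its loss causes Pompe disease, in which glycogen fills the lysosomes of muscle fibres. FoxO factors are kept out of the nucleus when the kinase Akt phosphorylates them, so fasting, disuse or loss of insulin and IGF1 signalling lets them enter it and switch on genes of protein breakdown. Among these are Fbxo32 (atrogin-1) and Trim63 (MuRF1), the ubiquitin ligases used most widely as markers of muscle wasting, and Fbxo30 (MUSA1) and Fbxo21 (SMART), which belong to the same F-box class as Fbxo32. Gadd45a is a stress gene that rises in denervated muscle, and Eif4ebp1 encodes the protein 4E-BP1, which holds back cap-dependent translation until mTORC1 phosphorylates it.

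Per library, 9299156 to 15957106 reads fell on the genes of the table, and the lowest count of any of the 10 genes in any library was 137 reads, for Fbxo30. Values are normalized counts, reads relative to library size after a scaling between libraries, and 1 read is worth 0.0652 to 0.0922 of them. Gaa, the targeted gene, measured 129 to 296 normalized counts in the wild-type mice, 14.0 to 17.8 in the untreated knockouts and 15.1 to 16.6 in the treated ones, so all 9 libraries matched their genotype labels. The human transgene was not analysed here. All 10 muscle fibre markers were present, none at 0 reads, and their summed level was 159180 to 183090 in WT_PBS, 111160 to 130230 in KO_PBS and 136890 to 151130 in KO_secGAA. All 11 macrophage markers were present, and their sum was 98.5 to 162 in WT_PBS, 239 to 346 in KO_PBS and 136 to 281 in KO_secGAA. Lyz2 was the largest of them, with means of 46.3, 133 and 82.9 in these groups. The means of Cd163 went the other way between WT_PBS and KO_PBS, at 9.89, 7.77 and 7.85. The 7 endothelial markers summed to 153 to 186, 103 to 143 and 154 to 179 in the same order of groups. In whole muscle, fewer cells of a type and less RNA per cell cannot be told apart, and the part of these shifts in the results below was not tested.

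Between KO_PBS and WT_PBS, 3 of the 10 genes passed the test: Gadd45a rose 4.54-fold, Eif4ebp1 rose 2.94-fold and Foxo4 fell to 0.65 of its wild-type level. None of the 5 ligase genes passed it, Fbxo32 and Trim63 included, although 1 of them, Fbxo30, had an unadjusted p under 0.05 and passed with limma voom, not with edgeR or DESeq2. The test was limma on log2(normalized count + 0.5), with Benjamini-Hochberg adjustment over 13089 genes and a threshold of 0.05 on the adjusted p. Folds of tested genes are on this scale, which understates the change of genes with low values. By this test 10.9% of all genes were called higher and 11.0% lower in KO_PBS. The values of KO_PBS and WT_PBS did not overlap for 4 of the 10 genes, against 39.7% of all genes, so this count is at the level of the whole table.

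**Figure D1:**
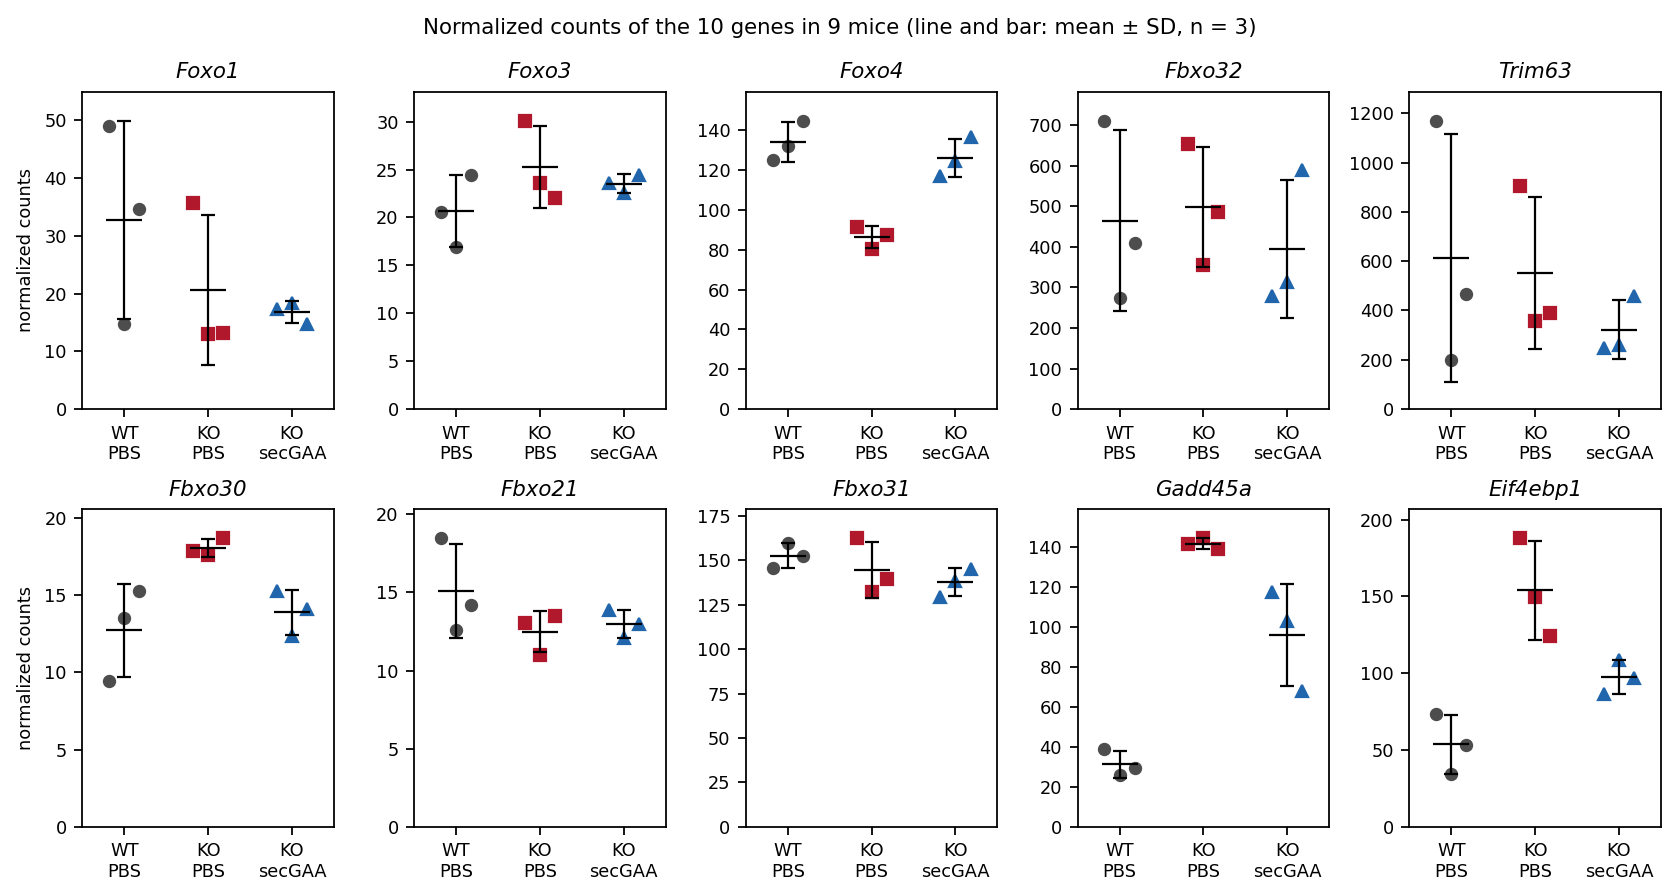
Normalized counts (vertical axes, each from 0) of the 10 genes in WT_PBS (circles), KO_PBS (squares) and KO_secGAA (triangles), 1 point per mouse, with the mean and SD of 3 as a line and bar. Foxo4, Gadd45a and Eif4ebp1 separate KO_PBS from WT_PBS, while Fbxo32, Trim63 and Foxo1 spread widely within groups.

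Per kilobase of merged exon, the scale on which genes can be compared, Trim63 had the highest level in WT_PBS, at 215 ± 176 (SD, n = 3), followed by Fbxo32 at 66.6 ± 32.1. Foxo4 stood at 38.5 ± 2.9, Fbxo31 at 27.9 ± 1.26, Eif4ebp1 at 24.5 ± 8.78 and Gadd45a at 17.7 ± 3.8. Foxo1, Foxo3, Fbxo21 and Fbxo30 lay far below, between 2.45 and 3.78. The mice overlapped between every pair of neighbours in this order except at 2 steps, from Foxo4 to Fbxo31 and from Gadd45a to Foxo1. In KO_PBS, Gadd45a reached 80.2 ± 1.53 per kilobase and Eif4ebp1 70.1 ± 14.6, beside 71.4 ± 21.3 for Fbxo32. Foxo4 was thus the most abundant FoxO transcript per kilobase in all 3 groups, at 38.5, 24.8 and 36.2, while Foxo1 and Foxo3 stayed between 1.94 and 3.78.

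Foxo4 was the FoxO gene that passed the test between genotypes. This X-linked gene (ENSMUSG00000042903, GRCm38 chrX:101254528-101260873, plus strand) measured 125, 132 and 145 normalized counts in WT_PBS mice 1, 2 and 3. In KO_PBS it measured 91.4, 80.5 and 87.4, and in KO_secGAA 117, 125 and 137. Every KO_PBS mouse lay below every mouse of the other groups, and the other groups overlapped. The difference between KO_PBS and WT_PBS was -0.63 ± 0.09 on the log2 scale (SE; limma adjusted p = 0.00134). It was smaller, at -0.315, without the scaling factors between libraries, and still past the threshold (limma adjusted p = 0.0119). The summed muscle fibre markers were likewise lowest in the KO_PBS mice, and their part in this result was not tested.

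Foxo1 (ENSMUSG00000044167, chr3:52268336-52353221, plus strand) varied more between mice of a group than between groups. Its normalized counts were 49.0, 14.7 and 34.6 in WT_PBS, 35.7, 13.0 and 13.2 in KO_PBS, and then 17.4, 18.3 and 14.7 in KO_secGAA. A pair of WT_PBS mice and 1 KO_PBS mouse were high and the other 6 libraries were low, so all groups overlapped. The log2 difference of -0.66 ± 0.45 between KO_PBS and WT_PBS did not pass the test (limma adjusted p = 0.331), and its 95% interval ran from -1.67 to 0.35. The antisense gene Gm20402 covers 674 of Foxo1's exon bases, and the sources do not say if reads were counted by strand.

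Foxo3 (ENSMUSG00000048756, chr10:42181841-42276755, minus strand), the FoxO factor best known for driving autophagy genes in muscle, spread less than Foxo1. It measured 20.6, 16.9 and 24.4 normalized counts in WT_PBS, 30.1, 23.6 and 22.0 in KO_PBS, and then 23.6, 22.5 and 24.5 in KO_secGAA. The groups overlapped throughout. The log2 difference between KO_PBS and WT_PBS was 0.29 ± 0.15 (limma adjusted p = 0.206, 95% interval -0.05 to 0.63). Without the scaling factors it was 0.597 and passed (limma adjusted p = 0.00789), and over all alternatives the adjusted p ran from 0.00789 to 0.521.

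Fbxo32 and Trim63 differed far more between mice of one group than between the groups. Fbxo32 (ENSMUSG00000022358, chr15:58175879-58214932, minus strand), the substrate-binding part of an SCF ligase, measured 711, 273 and 409 normalized counts in WT_PBS mice 1, 2 and 3. It measured 653, 356 and 485 in KO_PBS and 278, 314 and 589 in KO_secGAA. Trim63 (ENSMUSG00000028834, chr4:134315120-134329629, plus strand), a RING-finger ligase of the sarcomere, measured 1170.1, 198 and 468 in WT_PBS. It measured 907, 357 and 389 in KO_PBS and 248, 261 and 459 in KO_secGAA. WT_PBS mouse 1, KO_PBS mouse 1 and KO_secGAA mouse 3 were the highest of their groups for both genes.

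The difference between KO_PBS and WT_PBS was 0.17 ± 0.38 on the log2 scale for Fbxo32 (limma adjusted p = 0.786, 95% interval -0.67 to 1.0). For Trim63 it was 0.07 ± 0.58 (limma adjusted p = 0.943, 95% interval -1.22 to 1.36). Both signs turned with single libraries: without WT_PBS mouse 2 the differences were -0.159 and -0.562, and without KO_PBS mouse 1 they were -0.05 and -0.357. The interval of Trim63 takes in changes of more than 2-fold in either direction. The antisense gene Gm15943 shares 186 exon bases with Fbxo32 and had 12 to 98 reads per library, against 3020 to 10373 for Fbxo32.

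The pair moved together from mouse to mouse. Fbxo32 and Trim63 ranked the mice in the same order in all 3 groups, and their deviations from the group mean had the same sign in 8 of 9 libraries. Fbxo32 and Fbxo21 also had the same sign in 8 of 9, but the same order in only 1 group. Trim63 divided by Fbxo32 stayed between 0.726 and 1.65 normalized counts per normalized count. In WT_PBS the highest Trim63 value was 5.9 times the lowest, and 0.584% of the 9073 genes at 5 or more normalized counts in that group spread as widely. The same ratio was 2.6 for Fbxo32 and 3.33 for Foxo1, reached by 2.41% and 1.48% of those genes, with a median gene at 1.2. In KO_secGAA, Foxo1 had a ratio of only 1.25, while Fbxo32 kept 2.12 and Trim63 1.85. Foxo1 ordered the mice as these ligase genes did in WT_PBS and KO_PBS but not in KO_secGAA, where the mouse highest for both ligases had the lowest Foxo1. These are descriptions over 3 mice a group, with no test.

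**Figure D2:**
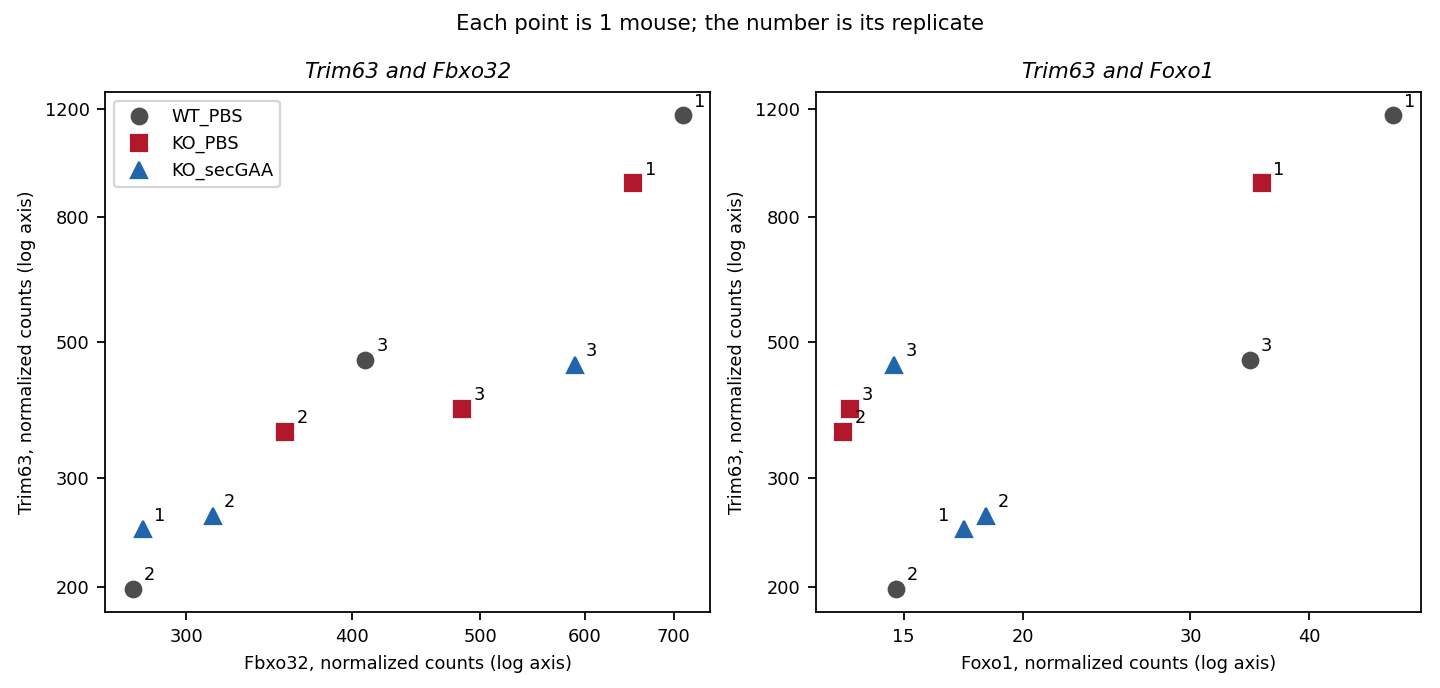
Normalized counts of Trim63 against Fbxo32 (left) and against Foxo1 (right) on log axes, 1 point per mouse with its replicate number. Trim63 and Fbxo32 rise together in every group, and KO_secGAA mouse 3 is high for both ligase genes but low for Foxo1.

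The 3 mice highest for the ligases also had the most reads of their groups, at 15957106, 14355201 and 14406655, and the highest summed muscle fibre markers, at 183090, 130230 and 151130. Myh4, the largest of these markers, was the highest of its group in all 3, at 55643, 32116 and 47561. Other markers of the list differed: Myh1, Myh2 and Mb were the lowest of their groups in WT_PBS mouse 1 and KO_secGAA mouse 3. In KO_PBS mouse 1 they were the highest. KO_PBS mouse 1 and KO_secGAA mouse 3 had the lowest summed macrophage markers of their groups, at 239 and 136. Of the 6 satellite cell markers 5 were in the table, and their sum was highest in the same 3 mice, at 88.1, 107 and 75.8. Most of this sum was Sdc4, at 61.4, 73.2 and 49.5, and the other markers did not share its order. Pax7 was the lowest of its group in each of these mice, at 0.994, 1.01 and 1.04. Cdh15 was the highest of its group in WT_PBS mouse 1 and KO_secGAA mouse 3 but not in KO_PBS mouse 1. The 6 adipocyte markers summed to 1424 in WT_PBS mouse 1, against 426 and 320 in the other WT_PBS mice, and to 399 and 333 in KO_PBS mouse 1 and KO_secGAA mouse 3, which were not the highest of their groups. The part of depth and cell makeup in this spread was not tested. Of 26 other FoxO targets of muscle, 61.5% were highest of their group in KO_PBS mouse 1 (34.0% of all genes), 50.0% in KO_secGAA mouse 3 (33.2% of all genes) and 42.3% in WT_PBS mouse 1 (37.2% of all genes). The same KO_PBS and KO_secGAA mice were also highest for 61.9% and 52.4% of 21 kinases and modifiers upstream of FoxO, and WT_PBS mouse 1 for 38.1%. Of 25 other muscle ubiquitin ligase genes, WT_PBS mouse 1 was highest for 28.0%, KO_PBS mouse 1 for 28.0% and KO_secGAA mouse 3 for 52.0%. The share in KO_secGAA mouse 3 was thus near that of the other lists, and the share in KO_PBS mouse 1 was well below theirs.

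The promoter of Trim63 is shown because this gene and Fbxo32 varied together and Trim63 is a known FoxO target. It is the RefSeq window of 250 bases up to the transcript start, GRCm38.p6 chr4:134314870-134315119, plus strand. Capitals mark a FoxO core (GTAAACA, read on either strand) and 3 E-boxes (CANNTG), the sites bound by myogenic factors such as myogenin.
Trim63: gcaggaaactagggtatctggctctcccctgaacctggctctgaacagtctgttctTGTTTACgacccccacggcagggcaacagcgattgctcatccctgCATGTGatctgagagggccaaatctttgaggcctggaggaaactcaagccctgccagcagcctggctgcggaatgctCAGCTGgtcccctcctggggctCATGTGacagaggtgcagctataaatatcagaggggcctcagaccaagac
The FoxO core lies 194 to 188 bases upstream of the start, and the E-boxes lie 149 to 144, 72 to 67 and 50 to 45 bases upstream. Of 32851 RefSeq windows of this length, 3.17% hold the FoxO core and 66.2% hold at least 1 E-box. RefSeq windows were matched for 7 of the 10 genes, not for Fbxo32, Foxo4 and Eif4ebp1, and Trim63 was the 1 gene of the 7 with the core. These letters are a description and show no binding.

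Fbxo30, Fbxo21 and Fbxo31 encode F-box proteins, and none of them passed the limma test in any of the 3 comparisons. Fbxo30 (ENSMUSG00000047648, chr10:11281330-11298052, plus strand) came nearest. It measured 9.43, 13.5 and 15.3 normalized counts in WT_PBS, 17.9, 17.6 and 18.7 in KO_PBS, and then 15.2, 12.4 and 14.1 in KO_secGAA. All 3 KO_PBS mice lay above all 6 others, in a range narrower than that of either other group. The log2 difference between KO_PBS and WT_PBS was 0.51 ± 0.16 (limma adjusted p = 0.0503). It passed with a pseudocount of 1 (limma adjusted p = 0.0499), with a filter at 5 (limma adjusted p = 0.0431) and with limma voom (adjusted p = 0.0436). It also passed without WT_PBS mouse 3 (limma adjusted p = 0.0335) and without the scaling factors (limma adjusted p = 0.00424). Over all alternatives the adjusted p ran from 0.00424 to 0.121.

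Fbxo21 (ENSMUSG00000032898, chr5:117976730-118010201, plus strand) measured 11.0 to 18.5 normalized counts over the 9 libraries, and its groups overlapped in every comparison. Fbxo31 (ENSMUSG00000052934, chr8:121549440-121578806, minus strand), which also acts in the cell cycle, measured 130 to 163 and had the smallest spread of the 10 genes, its highest library at 1.25 times its lowest. The log2 differences between KO_PBS and WT_PBS were -0.25 ± 0.15 for Fbxo21 (limma adjusted p = 0.266) and -0.08 ± 0.09 for Fbxo31 (limma adjusted p = 0.572). Without the scaling factors they turned to 0.055 and 0.233, and the value of Fbxo31 then passed (limma adjusted p = 0.0426, over all alternatives 0.0426 to 0.92).

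Gadd45a and Eif4ebp1 rose in every KO_PBS mouse. Gadd45a (ENSMUSG00000036390, chr6:67035096-67037457, minus strand), which acts on chromatin and stress kinases, measured 38.7, 25.7 and 29.4 normalized counts in WT_PBS. It measured 141, 144 and 139 in KO_PBS and 117, 103 and 67.8 in KO_secGAA. The 3 groups did not overlap, and KO_PBS was the tightest, its highest mouse at 1.04 times its lowest. The log2 difference between KO_PBS and WT_PBS was 2.18 ± 0.2 (limma adjusted p = 9.94e-05). E230016M11Rik, annotated on the other strand, covers 337 of the exon bases of Gadd45a.

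The RefSeq window of Gadd45a is shown for contrast with that of Trim63, since this gene rose while the ligase genes did not pass. It is GRCm38.p6 chr6:67037458-67037657, minus strand, 200 bases with the 50 nearest the RefSeq start left out because they are annotated as transcribed. Capitals mark the E-box.
Gadd45a: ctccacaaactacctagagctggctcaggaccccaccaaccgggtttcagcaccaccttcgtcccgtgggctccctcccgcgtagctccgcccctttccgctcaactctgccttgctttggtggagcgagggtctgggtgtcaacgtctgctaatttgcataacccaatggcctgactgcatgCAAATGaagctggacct
The E-box lies 67 to 62 bases upstream of the RefSeq start. Neither the FoxO core, its variant GTAAATA, the insulin response core CAAAACA nor the ATF4 composite element TGATGCAA was found in the 250 bases upstream of the start, and these 4 motifs are held by 3.17%, 2.73%, 5.56% and 0.791% of all windows. That says only that these letters are not in this window.

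Eif4ebp1 (ENSMUSG00000031490, chr8:27260329-27276674, plus strand) measured 73.2, 34.6 and 53.4 normalized counts in WT_PBS, 188, 149.6 and 124 in KO_PBS, and then 86.7, 109 and 97.1 in KO_secGAA. Its 3 groups did not overlap either, with the treated mice between the others. The log2 difference between KO_PBS and WT_PBS was 1.55 ± 0.24 (limma adjusted p = 0.00203). The calls of Gadd45a, Eif4ebp1 and Foxo4 in this comparison held in all 19 alternatives, with adjusted p up to 0.000994, 0.00965 and 0.0119.

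No other gene of either family passed the test with a rise. Gadd45g fell, from 232, 85.0 and 173 normalized counts in WT_PBS to 55.7, 27.7 and 10.8 in KO_PBS, and stood at 60.3, 76.7 and 77.9 in KO_secGAA. Its log2 difference between KO_PBS and WT_PBS was -2.53 ± 0.52 (limma adjusted p = 0.00744), opposite in sign to that of Gadd45a, and the KO_PBS and WT_PBS mice did not overlap. Gadd45b had a difference of -0.16 ± 0.25 (limma adjusted p = 0.69). Among the 4E-BP genes, the difference was -0.14 ± 0.1 for Eif4ebp2 (limma adjusted p = 0.349) and -0.17 ± 0.26 for Eif4ebp3 (limma adjusted p = 0.679). The values of Gadd45b, Eif4ebp2 and Eif4ebp3 turned to 0.152, 0.176 and 0.097 without the scaling factors. Eif4ebp2 measured 253 ± 27.9 normalized counts in WT_PBS and 229 ± 12.4 in KO_PBS (SD, n = 3).

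**Figure D3:**
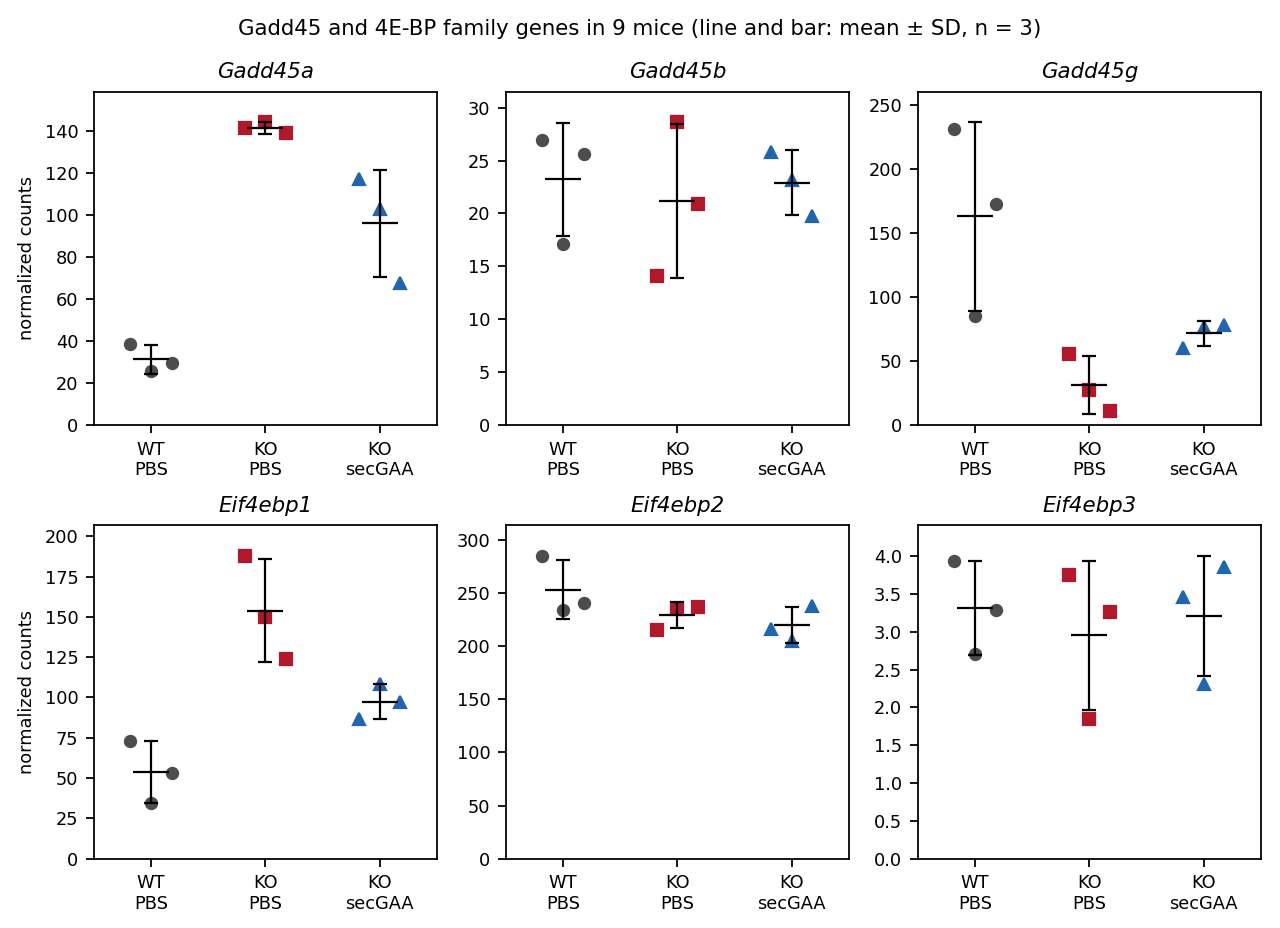
Normalized counts (vertical axes, each from 0) of the Gadd45 genes (top) and the 4E-BP genes (bottom), 1 point per mouse with the mean and SD of 3. Gadd45a and Gadd45g move in opposite directions between WT_PBS and KO_PBS, and Eif4ebp1 is the 4E-BP gene whose KO_PBS mice stand apart from WT_PBS.

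In the treated mice, Foxo4 was the 1 gene of the 10 that passed the test against KO_PBS. It was 1.46-fold higher in KO_secGAA (log2 difference 0.54 ± 0.09, limma adjusted p = 0.0137), in a comparison in which 1.37% of all genes were called higher and 2.31% lower. This call was lost without KO_PBS mouse 2, KO_secGAA mouse 2 or KO_secGAA mouse 3, at limma adjusted p = 0.0601, 0.0548 and 0.0503, and over all alternatives the adjusted p ran from 6.1e-05 to 0.0601. The log2 differences were 0.493, 0.549 and 0.484 without those mice. KO_secGAA did not overlap KO_PBS for 4 of the 10 genes, Foxo4 higher and Fbxo30, Gadd45a and Eif4ebp1 lower, against 24.0% of all genes.

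Gadd45a and Eif4ebp1 were lower in every treated mouse than in every KO_PBS mouse, yet neither difference passed. The log2 difference was -0.59 ± 0.2 for Gadd45a (limma adjusted p = 0.14, 95% interval -1.04 to -0.15). It was -0.64 ± 0.24 for Eif4ebp1 (limma adjusted p = 0.186, 95% interval -1.18 to -0.1). For the ligase genes the same comparison gave -0.38 ± 0.38 for Fbxo32, -0.69 ± 0.58 for Trim63 and -0.37 ± 0.16 for Fbxo30, with limma adjusted p = 0.637, 0.568 and 0.254. Fbxo21 and Fbxo31 were at 0.06 ± 0.15 and -0.07 ± 0.09.

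Against WT_PBS, Gadd45a was the 1 gene of the 10 that still passed in KO_secGAA, 3.01-fold higher (log2 difference 1.59 ± 0.2, limma adjusted p = 0.00387). In this comparison 1.83% of all genes were called higher and 1.89% lower. Eif4ebp1 was higher in each treated mouse than in each WT_PBS mouse, by 0.91 ± 0.24 on the log2 scale, with limma adjusted p = 0.0692. It passed with DESeq2 (adjusted p = 0.00987), without WT_PBS mouse 1 (limma adjusted p = 0.0265) and without the scaling factors (limma adjusted p = 0.0297). Over all alternatives the adjusted p ran from 0.00987 to 0.199. The groups did not overlap for 3 of the 10 genes, Gadd45a and Eif4ebp1 higher and Fbxo31 lower, against 26.9% of all genes.

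For Foxo4 the treated and wild-type means differed by -0.09 on the log2 scale, with a 95% interval of -0.29 to 0.12. On that scale the treated mean lay 86.1% of the way from KO_PBS to WT_PBS for Foxo4, 41.3% for Eif4ebp1 and 27.2% for Gadd45a. KO_PBS enters 1 comparison with each other group and WT_PBS likewise, so these values share mice.

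**Figure D4:**
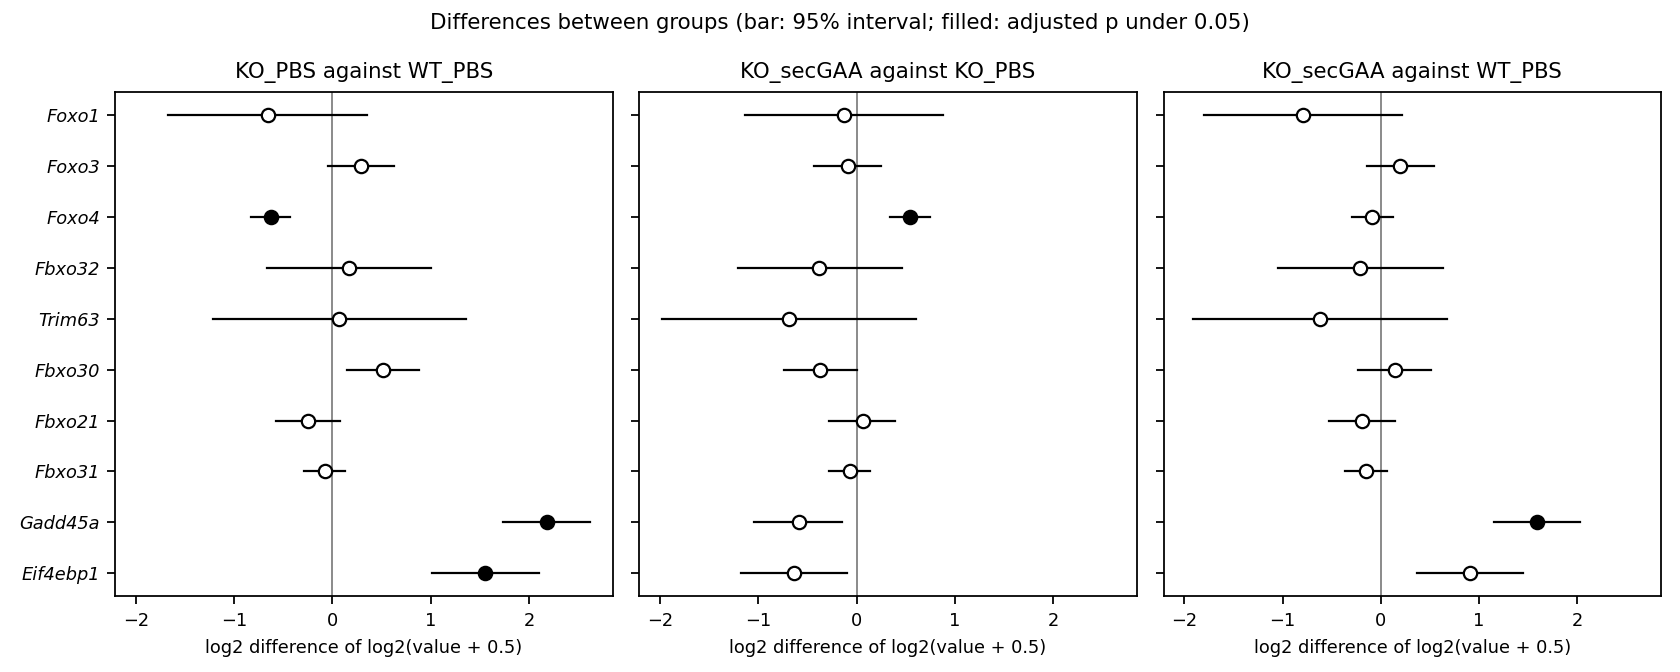
Differences of log2(normalized count + 0.5) between the groups (horizontal axes) for the 10 genes, with 95% intervals from limma, filled where the adjusted p is under 0.05. The intervals of Trim63, Foxo1 and Fbxo32 are the widest, and Foxo4, Gadd45a and Eif4ebp1 hold the filled points.

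Of 21 tested kinases and modifiers upstream of FoxO, 4 were higher and 1 lower in KO_PBS than in WT_PBS, beside 10.9% and 11.0% of all genes. The median log2 difference was -0.09, beside 0.01 for all genes. Akt1, a kinase that keeps FoxO out of the nucleus, measured 44.4, 47.6 and 45.1 normalized counts in WT_PBS, 95.9, 83.6 and 74.5 in KO_PBS, and then 47.1, 55.5 and 50.5 in KO_secGAA. It was 1.83-fold higher in KO_PBS than in WT_PBS (limma adjusted p = 0.000518) and lower in KO_secGAA than in KO_PBS, at -0.72 ± 0.11 on the log2 scale (limma adjusted p = 0.00758). Prkaa1, a catalytic subunit of the energy sensor AMPK, was 1.83-fold higher in KO_PBS, Ywhaz, a 14-3-3 protein of the family that binds phosphorylated FoxO, 1.61-fold and the receptor gene Igf1r 1.5-fold. Prkaa1 was also called lower in KO_secGAA than in KO_PBS, at -0.68 ± 0.12 (limma adjusted p = 0.0184), a call lost in 4 alternatives. The related genes Akt2 and Prkaa2 had higher counts than Akt1 and Prkaa1, without adjustment for exon length, and did not rise in KO_PBS. Akt2 measured 283 ± 8.08 in WT_PBS and 254 ± 1.25 in KO_PBS, a log2 difference of -0.16 ± 0.09 (limma adjusted p = 0.228). Prkaa2 measured 159 ± 9.35 and 126 ± 7.29, a difference of -0.33 ± 0.11 (limma adjusted p = 0.0624). Between KO_secGAA and WT_PBS, limma called 0 genes of this list, with 5 at an unadjusted p under 0.05 and 0 called by edgeR or DESeq2. Over all genes, limma called 1.83% higher and 1.89% lower in this comparison.

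Sgk1, an Akt-related kinase singled out after its values were seen, was the gene called lower, at -1.25 ± 0.37 (limma adjusted p = 0.0381). It measured 398, 134 and 206 normalized counts in WT_PBS, 118, 61.3 and 111 in KO_PBS, and then 92.5, 90.8 and 134 in KO_secGAA. Without WT_PBS mouse 1, the mouse highest for the ligases, the difference was -0.831, and the call was lost there and in 7 other alternatives.

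Of 26 other FoxO targets of muscle, 4 were higher and 3 lower in KO_PBS, near the 10.9% and 11.0% of all genes called in each direction, with a median log2 difference of -0.03. Ctsl, the gene of the lysosomal protease cathepsin L, rose 2.76-fold, from 79.3 ± 3.15 to 220 ± 22.5 normalized counts (SD, n = 3; limma adjusted p = 9.85e-05). Cat, which encodes catalase, rose 1.88-fold, from 78.0 ± 5.36 to 147 ± 13.1 (limma adjusted p = 0.00137). The autophagy kinase genes Ulk1 and Ulk2 fell by 0.72 and 0.45 on the log2 scale (limma adjusted p = 0.00299 and 0.00182), and the call of Ulk2 was lost in 1 alternative. Ctsl was lower again in KO_secGAA than in KO_PBS, at -0.74 ± 0.13 (limma adjusted p = 0.0184), and 1.65-fold above WT_PBS (limma adjusted p = 0.0195), calls lost in 2 and 4 alternatives. With Ctsl, 3 of the 26 were called higher in KO_secGAA than in WT_PBS, beside 1.83% of all genes. The others were Bcl2l11, a pro-apoptotic gene, and Gabarapl1, an autophagosome gene, at 2.09-fold and 1.69-fold. These calls were lost in 4 and 6 alternatives, with adjusted p up to 0.0836 and 0.14. Both genes were also called higher in KO_PBS than in WT_PBS, at 0.85 ± 0.2 and 0.68 ± 0.17 (limma adjusted p = 0.0143 and 0.0193). No alternatives are given here for these KO_PBS calls. Between KO_secGAA and KO_PBS, Bcl2l11 and Gabarapl1 differed by 0.22 ± 0.2 and 0.08 ± 0.17 (limma adjusted p = 0.607 and 0.837).

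Among 25 other muscle ubiquitin ligase genes, 2 were higher and 4 lower in KO_PBS, beside 10.9% and 11.0% of all genes. The median was -0.03. Fbxl22, an F-box gene of the sarcomere, rose 2.28-fold (limma adjusted p = 0.00612) and was lower in KO_secGAA than in KO_PBS, at -1.26 ± 0.23 (limma adjusted p = 0.0204), the latter call lost in 4 alternatives. Wwp1, Trim55, which encodes the MuRF2 relative of Trim63, and Kbtbd13 had differences of -0.5, -0.46 and -0.8 (limma adjusted p = 0.0046, 0.00524 and 0.00642), and all 3 calls were lost without the scaling factors. Trim55 was also lower in KO_secGAA than in WT_PBS, at -0.39 ± 0.09 (limma adjusted p = 0.0406), and Wwp1 was higher in KO_secGAA than in KO_PBS, at 0.4 ± 0.09 (limma adjusted p = 0.0477). These calls of Trim55 and Wwp1 were lost in 11 and 12 of the 19 alternatives, with adjusted p up to 0.159 and 0.154. A further list held 22 genes of ubiquitin, the ubiquitin-like Nedd8, their E1 and E2 enzymes and the SCF core. Of these, 2 were higher and 2 lower in KO_PBS, beside 10.9% and 11.0% of all genes. The ubiquitin fusion gene Rps27a stood at 1.4-fold and Uba3, of the Nedd8 E1, at 1.33-fold. Ube2g1 stood at 0.78-fold and Ube2b at 0.77-fold. The calls of Uba3, Ube2g1 and Ube2b were lost in 4, 2 and 5 alternatives. Limma called 0 of the 22 in either comparison of the treated mice, with 4 at an unadjusted p under 0.05 against KO_PBS and 1 against WT_PBS, and DESeq2 called 1 against KO_PBS. Over all genes, limma called 1.37% higher and 2.31% lower against KO_PBS, and 1.83% and 1.89% against WT_PBS.

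Regulators of the atrophy ligase genes gave 3 higher and 1 lower of 17 in KO_PBS, beside 10.9% and 11.0% of all genes. The median was 0.11. Nfkb2, a subunit of the non-canonical NF-kappaB pathway, rose 3.61-fold, from 13.9 ± 2.82 to 50.9 ± 3.8 normalized counts (limma adjusted p = 0.000115). Stat3 rose 1.84-fold (limma adjusted p = 0.000741) and Myog, the gene of myogenin, 2.62-fold (limma adjusted p = 0.0086). Mapk14, the gene of the stress kinase p38 alpha, fell by 0.71 on the log2 scale (limma adjusted p = 0.00334). Nfkb2 and Stat3 were called lower in KO_secGAA than in KO_PBS, at -1.13 ± 0.17 and -0.72 ± 0.11 (limma adjusted p = 0.00915 and 0.0103). Macrophages express both genes, and the summed macrophage markers were higher in each KO_PBS mouse than in each WT_PBS mouse, which was not tested as a source of these differences. Lyz2 was the largest part of that sum. Of the 11 markers, 3 were called higher in KO_PBS than in WT_PBS and 8 were not called.

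Of 12 ligase substrates, 3 were lower and 1 higher in KO_PBS, beside 11.0% and 10.9% of all genes. The median was -0.04. The fast-fibre genes Myl1 and Mybpc2 and the muscle creatine kinase gene Ckm stood at 0.65, 0.66 and 0.66 of wild type (limma adjusted p = 0.0176, 0.0248 and 0.0448). Desmin (Des) was 1.45-fold higher (limma adjusted p = 0.0182). These 4 calls were lost in 5, 7, 11 and 3 alternatives in the order Myl1, Mybpc2, Ckm and Des. Ckm is also 1 of the muscle fibre markers, of which 5 of 10 were called lower, beside 11.0% of all genes. The calls of the markers Tnnc2, Actn3, Ttn and Tnnt3 were lost in 1, 7, 10 and 10 alternatives. Of the markers not called, Acta1, Myh4 and Mb had negative differences, and Myh1 and Myh2 positive ones of 0.29 ± 0.35 and 0.57 ± 0.6.

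Of 12 Gadd45 family and ATF4 pathway genes, 3 were higher and 2 lower in KO_PBS, beside 10.9% and 11.0% of all genes. The median was 0.24. Trib3, a pseudokinase gene induced by ATF4, measured 0.857, 1.09 and 0.925 normalized counts in WT_PBS, 15.8, 7.37 and 27.1 in KO_PBS, and then 11.5, 16.4 and 5.37 in KO_secGAA. Its mean went from 0.957 ± 0.119 to 16.7 ± 9.89 normalized counts (SD, n = 3), a rise of 10.47-fold with 0.5 added to each value (limma adjusted p = 0.000926), which understates the change of a gene this low. It was also called higher in KO_secGAA than in WT_PBS, 7.28-fold with 0.5 added (limma adjusted p = 0.0121), a call lost in 3 alternatives. Asns, the asparagine synthetase gene, rose 6.7-fold in KO_PBS (limma adjusted p = 0.00487). Atf4 itself had a log2 difference of -0.08 ± 0.16 (limma adjusted p = 0.768), which turned to 0.239 without the scaling factors. Map3k4, a kinase that GADD45 proteins bind, was lower in both knockout groups than in WT_PBS, at -0.46 ± 0.11 and -0.51 ± 0.11 (limma adjusted p = 0.0144 and 0.0342). Atf5 was 2.1-fold higher in KO_secGAA than in WT_PBS (limma adjusted p = 0.0409). It was also called higher in KO_PBS than in WT_PBS, at 0.76 ± 0.24 (limma adjusted p = 0.0476). That call lies close to the threshold, and no alternatives are given for it here. The KO_secGAA calls of Map3k4 and Atf5 were each lost in 8 alternatives, with adjusted p up to 0.109 and 0.137, and the KO_PBS call of Map3k4 in 1.

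Of 21 genes of the 4E-BP family and cap-dependent translation, 2 were higher and 3 lower in KO_PBS, beside 10.9% and 11.0% of all genes. The median was -0.0. The helicase gene Eif4a1 was 1.5-fold higher (limma adjusted p = 0.00942) and the scaffold gene Eif4g3 1.34-fold (limma adjusted p = 0.02). Rps6kb1, the gene of the S6 kinase downstream of mTORC1, and the helicase gene Eif4a2 had differences of -0.52 and -0.29 (limma adjusted p = 0.0331 and 0.0427). The last 3 calls were lost in 3, 5 and 10 alternatives. In both comparisons of the treated mice limma called 0 genes of this list, with 2 at an unadjusted p under 0.05 against KO_PBS and 4 against WT_PBS, and DESeq2 called 1 against KO_PBS. The limma shares over all genes were 1.37% higher and 2.31% lower against KO_PBS, and 1.83% and 1.89% against WT_PBS.

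**Figure D5:**
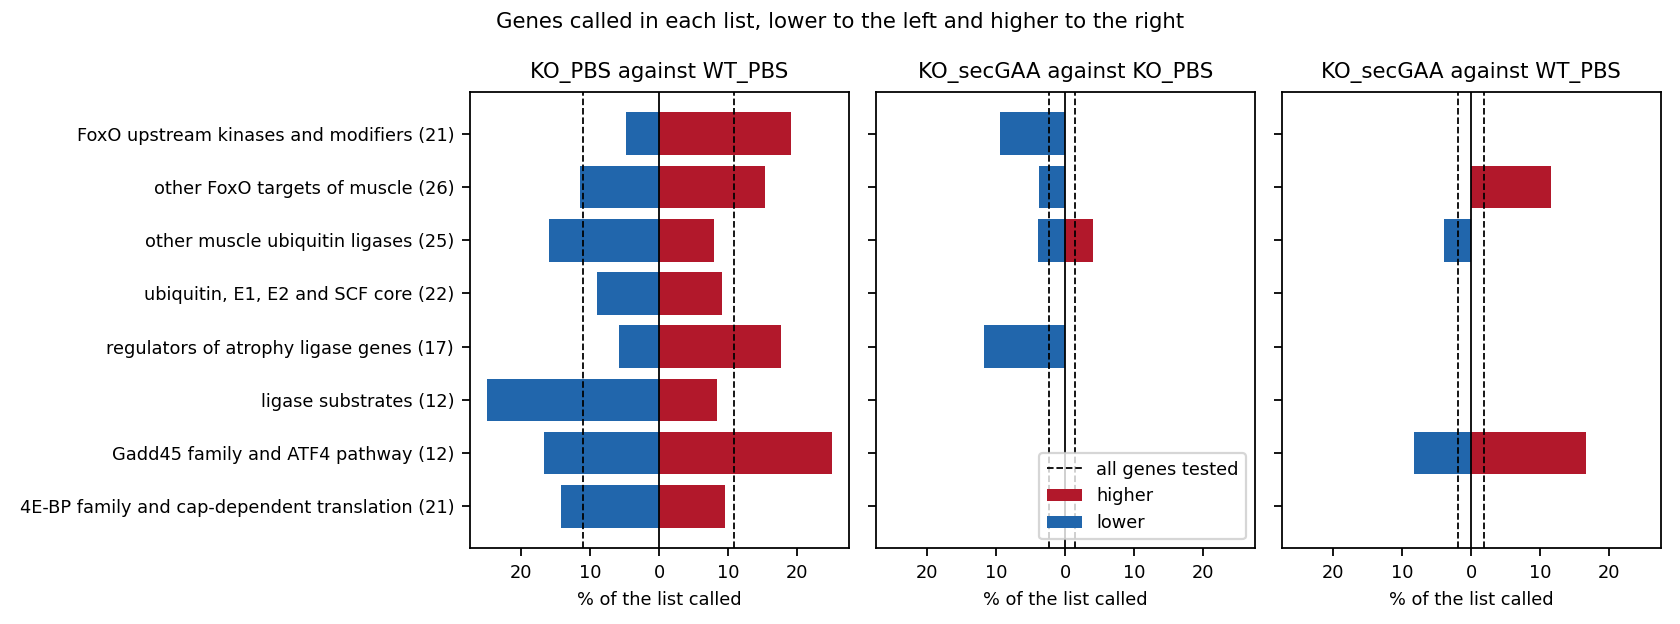
Share of each list called (horizontal axes, percent of the genes tested, in parentheses after the list's name), with lower calls to the left and higher calls to the right of 0, for the 3 comparisons. Dashed lines mark the share of all genes called in each direction, 11.0% and 10.9% for KO_PBS against WT_PBS.

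The genes whose pattern over the 9 libraries was most like that of each gene were found as the smallest root mean square difference of centred log2 values among 9215 genes. Nearest to Fbxo32 was Klhl38, at 0.22, followed by Gpx3 at 0.25 and Sdc4 at 0.28. Klhl38 measured 68.4, 25.3 and 40.5 normalized counts in WT_PBS, 44.1, 25.5 and 35.1 in KO_PBS, and then 27.8, 22.5 and 45.4 in KO_secGAA. Among the 9215 genes searched, Klhl38 was also nearest to Trim63, at 0.42, with Slc39a14 and Plekhf1 at the same distance. The genes nearest to Foxo1 were Map3k6 at 0.21, 8430408G22Rik at 0.27 and Slc25a30 at 0.29.

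Gadd45a lay nearest to Tmc6 at 0.25, Runx1 at 0.26 and Cpne2 at 0.27. Runx1, a transcription factor gene, measured 2.64, 2.35 and 2.78 normalized counts in WT_PBS, 11.9, 15.6 and 12.5 in KO_PBS, and then 9.54, 8.79 and 9.69 in KO_secGAA. Eif4ebp1 lay nearest to Tmem43 and Musk, both at 0.18, and Cacng1 at 0.2. Musk, which encodes the receptor kinase of the neuromuscular junction, measured 6.89, 2.85 and 4.63 in WT_PBS, 16.8, 13.0 and 9.42 in KO_PBS, and then 10.7, 9.75 and 10.1 in KO_secGAA. All of these distances were measured over the same 9 libraries and carry no test.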

How the data were processed

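RNA from the quadriceps of 9 male mice was sequenced as single-end reads of 61 bp. Tools listed in the submitters' processing notes are cutadapt, CASAVA, RSEM, edgeR and limma, with the build GRCm38; their steps and versions are not stated there. The authors deposited a normalized signal (a table of normalized counts) for 13116 genes. Whole reads were recovered for 100% of 118044 values (relative tolerance 1e-06), each value being (reads + 0.5) × 1e6 divided by an effective library size, the total times a TMM factor, plus 1.

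From this signal, limma 3.58.1 (R 4.3.3) was run on log2(value + 0.5) over all 9 libraries, with group means and a mean-variance trend, for the 13089 genes that reached 1 in 3 libraries. The planned test for raw counts was not needed, since the table holds normalized values. The alternatives were pseudocounts of 1 and 0.1, no filter or a filter at 5, edgeR 4.0.16 and DESeq2 1.42.0 on the recovered reads, limma voom, no scaling factors, quantile normalization, only 2 groups, and leaving out each library. Scripts were tested on simulated data. Positions and exon lengths are from GENCODE M21 (GRCm38).

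The 10 genes and all gene lists were chosen with earlier results of these data known. From each list, up to 4 called genes of smallest p per comparison were named. Akt2, Prkaa2, Lyz2, Cd163 and the single cell type markers compared between mice were named after their values were seen.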

Additional observations from a re-analysis of the deposited data

How the results depend on the processing

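Between KO_PBS and WT_PBS, 2867 genes were called, 4984 without scaling factors and 1744 to 2847 when 1 library was left out, with the fewest without WT_PBS mouse 3 (1744) and KO_PBS mouse 2 (1844). Of the 10 genes, 3 were called, and 6 without scaling factors. Between KO_secGAA and KO_PBS, 481 genes were called, 798 with DESeq2, 959 without scaling factors, 316 with the 2 groups alone and 159 to 568 without 1 library. The 1 call among the 10 genes became 0 without KO_PBS mouse 2, KO_secGAA mouse 2 or KO_secGAA mouse 3 (range 0 to 1). Between KO_secGAA and WT_PBS, 487 genes were called, 1022 with DESeq2, 1007 without scaling factors and 94 to 503 without 1 library. The 1 call among the 10 genes became 2 with DESeq2, without scaling factors and without WT_PBS mouse 1 (range 1 to 2). On the recovered reads, edgeR called 2845, 445 and 503 genes in these comparisons. Without scaling factors the median gene shifted by 0.295, -0.144 and 0.151 in these comparisons, and 89.6%, 10.6% and 86.2% of calls were higher, against 49.9%, 37.2% and 49.1%.

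These log2 differences changed sign, with ranges given over the leave-one-out values. Between KO_PBS and WT_PBS, Trim63 was -0.152 with edgeR, -0.165 with DESeq2 and ran from -0.562 to 0.716, and Fbxo32 ran from -0.159 to 0.529. Gadd45b ran from -0.399 to 0.102 and Eif4ebp3 from -0.345 to 0.082. Without scaling factors, Fbxo21 turned to 0.055, Fbxo31 to 0.233, Eif4a2 to 0.031, Gadd45b to 0.152, Eif4ebp2 to 0.176, Eif4ebp3 to 0.097 and Atf4 to 0.239. With quantile normalization, the fibre markers Ttn and Tnnt3 were 0.068 and 0.213. Between KO_secGAA and KO_PBS, Foxo1 ran from -0.37 to 0.342, Foxo3 from -0.179 to 0.043, Fbxo31 from -0.13 to 0.019 and Fbxo21 from -0.028 to 0.113, and Fbxo21 was -0.091 without scaling factors. The positive values of Foxo1, Foxo3 and Fbxo31 came without KO_PBS mouse 1. Between KO_secGAA and WT_PBS, Fbxo32 ran from -0.54 to 0.153, Trim63 from -1.256 to 0.022 and Fbxo30 from -0.052 to 0.283, each turning without WT_PBS mouse 1, and without scaling factors Foxo4 was 0.074 and Fbxo31 0.013. The causes were not tested. For the 10 genes, 540 of the alternative values kept their direction and side of the threshold, 18 changed sign, 9 newly passed and 3 no longer passed. Of the 18, 1 also passed, Fbxo31 without scaling factors. No paired analysis was possible because the labels give the groups no shared replicate numbers. The lowest count of the 10 genes was 137 reads, and how far depth limits these comparisons was not tested.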
